A study of Arabidopsis thaliana with 9 samples.

Results

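Cuticular wax is the layer of very-long-chain fatty acid derivatives that covers the aerial epidermis of plants. The set described here holds 10 Arabidopsis genes for its synthesis and export, picked by locus code from the 33473 genes of the deposited table: KCS1 (AT1G01120), KCS6 (AT1G68530), CER2 (AT4G24510) and CER10 (AT3G55360) for chain elongation, CER1 (AT1G02205), CER3 (AT5G57800), MAH1 (AT1G57750) and CER4 (AT4G33790) for the modification of the chains, and CER5 (AT1G51500) and WBC11 (AT1G17840) for export. All 10 loci were found. RNA was sequenced from shoots of Col-0 plants, 21 days old, that had been raised at 23 °C in continuous dim light (50 µmol m-2 s-1). The plants were moved to high light (1000 µmol m-2 s-1) at 21 °C for 0 s (the control), 20 s or 60 s and frozen in liquid nitrogen in their pots. No mutant, transgene or chemical was used in any group, so the groups differ by the labels only in the time of exposure. That time was spent both in high light and at 21 °C, so light and temperature cannot be told apart. Each exposure had 3 pools of leaves from at least 30 plants, 9 samples in all, but the table holds 1 FPKM value per gene and exposure. FPKM counts sequenced fragments relative to the length of the transcript and to all mapped fragments. No value below therefore has an error, no test was possible, and higher and lower describe deposited values only.

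Epidermal cells make wax from fatty acids exported by their plastids. An elongase complex in the endoplasmic reticulum adds carbon units in a cycle of condensation by a KCS enzyme, reduction, dehydration and a last reduction by CER10. The elongated chains then enter an alkane branch, in which CER1 and CER3 act together, or an alcohol branch, in which CER4 makes primary alcohols and WSD1 joins them to acyl groups as wax esters. ABC transporters of the G class, among them CER5 and WBC11, carry wax out through the plasma membrane. The amount of wax is controlled largely through transcription, with MYB-type activators such as MYB96 and the AP2/ERF-type repressor DEWAX, whose transcript is known to accumulate in darkness.

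The promoters of 4 members are shown because their genes span the patterns described below. KCS6 had the highest level of the set, CER1 the lowest ratio at 20 s among the 8 abundant members, CER3 the only higher value at 20 s, and WBC11 carries a motif known from epidermal genes. Each run is the 250 bases before the most upstream annotated start of the gene, 5′ to 3′ on the gene's own strand, from RefSeq TAIR10.1. Capitals mark matches, on either strand, to ACGTG (the core of abscisic acid response elements), to TAACTA (bound by MYB factors) or to TAAATGCA and TAAATGTA (the L1 box, bound by homeodomain factors of the epidermis). The windows are chr1:25715025-25715274 on the minus strand for KCS6, chr1:418166-418415 on the plus strand for CER1, chr5:23419934-23420183 on the plus strand for CER3 and chr1:6142152-6142401 on the plus strand for WBC11, and no other annotated gene lies in them.
KCS6: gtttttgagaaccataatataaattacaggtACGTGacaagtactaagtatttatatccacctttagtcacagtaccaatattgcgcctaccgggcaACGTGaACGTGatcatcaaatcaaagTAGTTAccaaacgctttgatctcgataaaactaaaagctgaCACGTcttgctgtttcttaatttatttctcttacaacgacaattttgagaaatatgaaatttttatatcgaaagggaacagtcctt
CER1: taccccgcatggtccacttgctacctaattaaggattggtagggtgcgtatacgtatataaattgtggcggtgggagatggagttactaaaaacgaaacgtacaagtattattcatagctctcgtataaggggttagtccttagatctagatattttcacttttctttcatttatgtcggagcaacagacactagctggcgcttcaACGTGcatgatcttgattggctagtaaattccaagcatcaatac
CER3: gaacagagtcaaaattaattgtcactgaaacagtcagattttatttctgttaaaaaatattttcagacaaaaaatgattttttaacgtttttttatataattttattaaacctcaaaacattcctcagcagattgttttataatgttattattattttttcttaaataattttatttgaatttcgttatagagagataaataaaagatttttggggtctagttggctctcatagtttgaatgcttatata
WBC11: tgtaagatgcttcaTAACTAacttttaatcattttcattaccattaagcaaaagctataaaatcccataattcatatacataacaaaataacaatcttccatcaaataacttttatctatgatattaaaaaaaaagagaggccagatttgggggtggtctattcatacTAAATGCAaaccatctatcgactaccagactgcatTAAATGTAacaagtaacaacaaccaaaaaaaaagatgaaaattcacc

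In KCS6 the letters ACGTG or their reverse complement occurred 4 times and TAACTA, on the other strand, occurred 1 time. CER1 held 1 ACGTG, between 44 and 40 bases before its start. CER3 held no match, and WBC11 held 1 TAACTA and 2 L1 boxes, TAAATGCA from 82 to 75 and TAAATGTA from 47 to 40 bases before its start. Among all 10 members ACGTG was found in 4 (CER1, CER2, CER4 and KCS6), where 22.9% of the 27443 protein-coding promoters of the same length held it. TAACTA was found in 5 members (CER2, CER5, KCS6, MAH1 and WBC11) against 20.6% of all promoters. The L1 box was found in 1 member against 4.49% of all promoters, and GCCGCC, the core of the GCC box that ERF factors bind, in 0 members against 1.87%. CER10 and KCS1, like CER3, held no match. These are matches of letters in a short window, and any part of them in the FPKM values was not tested.

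The 10 genes fell into an abundant group of 8 and a scarce pair. At 0 s the order was KCS6 (347 FPKM), CER5 (114), KCS1 (97.5), CER1 (92.0), CER10 (83.9), CER3 (67.6), WBC11 (56.2), CER2 (42.8), CER4 (3.01) and MAH1 (2.17 FPKM). KCS6 stood above 98.7% of the 22997 genes with a value above 0, and CER2 above 85.8%, whereas CER4 stood above 32.3% and MAH1 above 28.6%. With no error it cannot be said which neighbours in this order differ, and the order of KCS1, CER1, CER10 and CER3 changed between exposures. The summed level of the 10 genes was 906 FPKM at 0 s, 839 FPKM at 20 s and 909 FPKM at 60 s. KCS6 made up 38.3%, 39.4% and 42.3% of these sums.

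**Figure D1:**
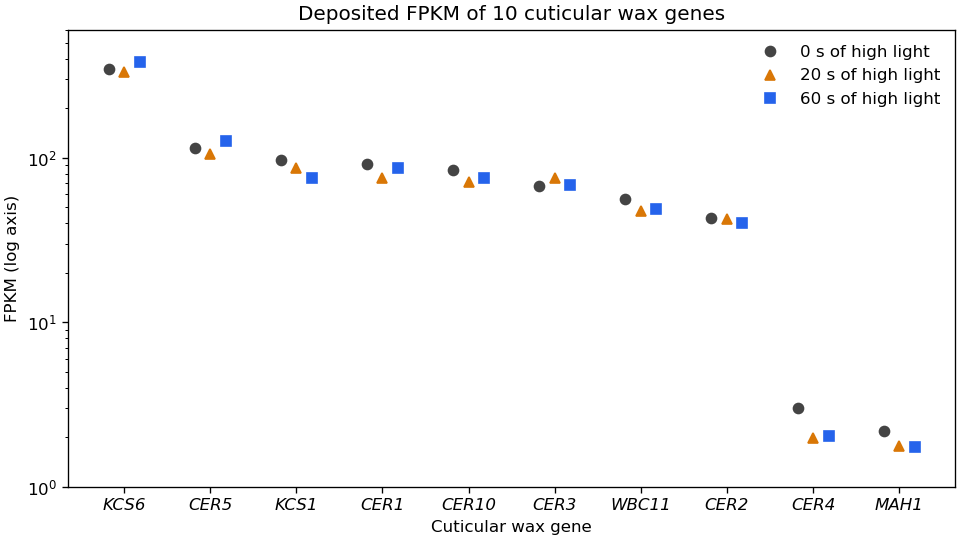
FPKM of the 10 wax genes on a log axis, ordered by the level at 0 s, with a marker for each exposure and no error bars because the table holds 1 value per exposure. KCS6 lies between 331 and 384 FPKM, and CER4 and MAH1 lie at or under 3.01 FPKM. The 3 exposures lie close together for most genes, and farther apart for CER4, at 3.01 FPKM at 0 s, 1.99 at 20 s and 2.03 at 60 s.

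Differences between exposures were small. Ratios are given as log2((x + 1)/(y + 1)) of FPKM, a scale that understates the differences of low genes, and folds are on the same FPKM + 1 scale. The 13946 genes whose mean reached 5 FPKM, called tested genes here although no statistical test was made, serve as background. Of the members, 8 passed this minimum and CER4 and MAH1 did not. At 20 s against 0 s, 7 of the 8 were lower and 1 was higher, where 51.5% of the background was lower and 48.5% higher. The median log2 ratio of the 8 was -0.14, beside -0.00 for the background. At 60 s against 0 s, 5 were lower and 3 higher, where 45.4% of the background was lower and 54.6% higher, and the median was -0.09 beside 0.01. At 60 s against 20 s, 5 were higher and 3 lower (57.6% and 42.4% of the background), with a median of 0.06 beside 0.02. None of the 8 reached 1.5-fold in any of the 3 comparisons. In the background 2.29% did so at 20 s, 2.11% at 60 s and 1.79% between 20 s and 60 s. Both comparisons with 0 s use the same 0 s values, so a gene with a high value there is low in both.

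Among the 8 abundant members the condensing enzymes KCS6 and KCS1 had the highest and the lowest ratio at 60 s against 0 s. KCS6 (also CER6 or CUT1), the main condensing enzyme for the longest wax chains, had 347, 331 and 384 FPKM at 0, 20 and 60 s. It was lowest at 20 s and highest at 60 s, with log2 ratios to 0 s of -0.07 and 0.15. KCS1, a condensing enzyme with a broader role in chain elongation, had 97.5, 86.7 and 76.0 FPKM. Its level was highest at 0 s and lowest at 60 s. The log2 ratio of -0.17 at 20 s became -0.36 at 60 s, a value that 1.94% of the background reached or went below. KCS1 was the only 1 of the 8 at least 1.2-fold away from 0 s at 60 s, where 3.92% of the background was that much lower and 7.83% that much higher. The level of KCS6 was 3.56 times that of KCS1 at 0 s, 3.82 times at 20 s and 5.06 times at 60 s. KCS6 lies on chromosome 1 from 25712588 to 25714807 and KCS1 on chromosome 1 from 57269 to 59167, as the authors' table gives them (build TAIR9, which the submitters' processing notes name), and so for all loci below.

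CER10, the enoyl-CoA reductase that closes the elongation cycle, had 83.9, 71.0 and 75.0 FPKM. Both values in high light were below that at 0 s, with log2 ratios of -0.24 and -0.16. The first was reached or passed downward by 4.38% of the background. The partners of CER10 in the cycle, the ketoacyl reductase KCR1 (72.6, 66.9 and 73.1 FPKM) and the dehydratase PAS2 (81.5, 74.6 and 75.4 FPKM), stood at similar levels, and both were also lowest at 20 s. The ratio of CER10 to KCR1 was 1.16, 1.06 and 1.03 and that of CER10 to PAS2 was 1.03, 0.952 and 0.994 at the 3 exposures. CER10 lies on chromosome 3 from 20520930 to 20523014.

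CER2 is an acyltransferase-like protein that enables KCS6 to make the longest chains. It had 42.8, 42.8 and 40.1 FPKM, and its log2 ratio of -0.00 at 20 s was the smallest difference in the set. At 60 s the ratio was -0.09, which 20.3% of the background reached or went below. The related gene CER26 had 82.9, 68.4 and 75.2 FPKM, so that CER2 stood at 0.517, 0.625 and 0.533 times its level. CER2 lies on chromosome 4 from 12660749 to 12662656.

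In the alkane branch the 2 partner genes went apart at 20 s. CER1, which acts with CER3 in making alkanes, had 92.0, 75.5 and 86.6 FPKM. It was lowest at 20 s and nearer to its 0 s level at 60 s. The log2 ratio at 20 s was -0.28, reached or passed downward by 2.82% of the background, and CER1 was the only 1 of the 8 members at least 1.2-fold lower there, where 3.28% of the background was, and 0 members were at least 1.2-fold higher, where 6.92% was. Centred on the epidermis markers, CER1 came to -0.23 and was no longer 1.2-fold lower. At 60 s the log2 ratio to 0 s was -0.09. CER3 had 67.6, 75.1 and 68.4 FPKM, highest at 20 s and close to its 0 s level at 60 s. Its log2 ratios were 0.15 and 0.02, and 14.5% of the background was as high or higher at 20 s. The level of CER1 was 1.36 times that of CER3 at 0 s, 1.01 times at 20 s and 1.27 times at 60 s. CER1 lies on chromosome 1 from 418767 to 422438 and CER3 on chromosome 5 from 23420209 to 23424052.

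MAH1, a cytochrome P450 that hydroxylates alkanes in the middle of the chain and is best known from stem wax, had 2.17, 1.76 and 1.74 FPKM. The level of CER1 was 42.4, 42.8 and 49.7 times that of MAH1 at the 3 exposures. Both values in high light were below that at 0 s, with log2 ratios of -0.20 and -0.21. At a pseudocount of 5 FPKM these ratios came to -0.08 and -0.09, so their size is set partly by the scale. MAH1 lies on chromosome 1 from 21383981 to 21385709.

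CER4, the fatty acyl-CoA reductase that makes primary alcohols, had 3.01, 1.99 and 2.03 FPKM, about the same at 20 s and 60 s and higher at 0 s. Its log2 ratios of -0.42 and -0.40 were the lowest of all 10 members at either exposure, but at a level below the minimum of 5 FPKM. They came to -0.58 and -0.54 with a pseudocount of 0.1 FPKM and to -0.20 and -0.19 with 5 FPKM. The next enzyme of the alcohol branch, the wax ester synthase WSD1, had 13.7, 8.51 and 11.9 FPKM. WSD1 was lowest at 20 s, with a log2 ratio of -0.63 (1.55-fold lower), and only 0.430% of the background was as low. Unlike CER4 it was higher again at 60 s, with a log2 ratio of 0.44 against 20 s. CER4 lies on chromosome 4 from 16204157 to 16207947 and WSD1 on chromosome 5 from 14767499 to 14770249.

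**Figure D2:**
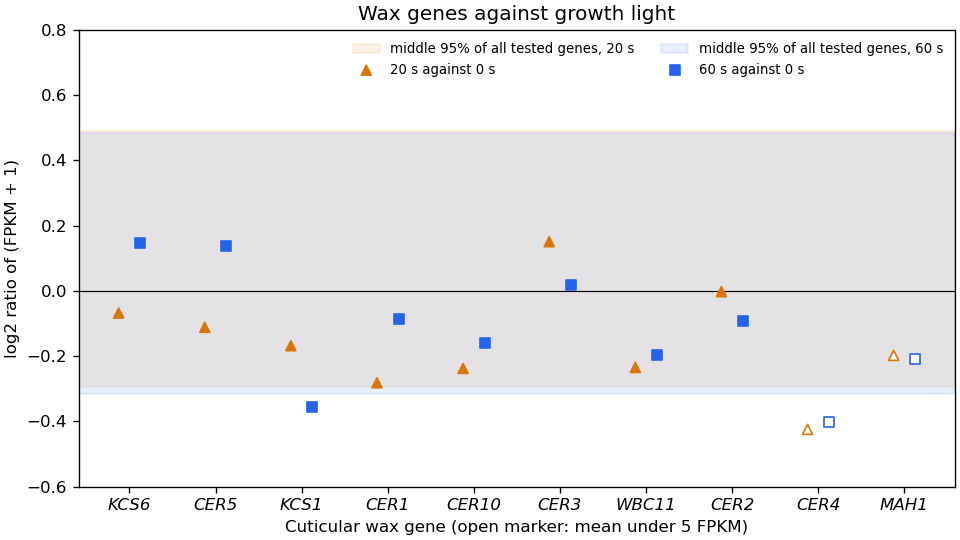
Log2 ratio of FPKM + 1 against 0 s for the 10 wax genes at 20 s (triangles) and 60 s (squares), in the order of the level at 0 s. Shaded bands span the middle 95% of all tested genes, -0.29 to 0.49 for 20 s and -0.32 to 0.49 for 60 s, and open markers are genes with a mean under 5 FPKM. Among the 8 genes above that mean, only KCS1 at 60 s lies outside its band. This depends on the background: if limited to genes averaging 20 FPKM or more, the 20 s band would begin at -0.27. CER1, at -0.28 for 20 s, would then lie outside as well.

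Of the exporters, CER5 and WBC11 shared the lower value at 20 s and differed at 60 s. CER5 (ABCG12) had 114, 106 and 126 FPKM, lowest at 20 s and highest at 60 s. Its log2 ratio at 60 s against 20 s, 0.25, was the highest of the set, and 5.76% of the background was as high. WBC11 (ABCG11), which is needed for the export of both wax and cutin, had 56.2, 47.6 and 48.9 FPKM. Both high light values of WBC11 lay below 0 s, with log2 ratios of -0.23 and -0.20. The level of CER5 was 2.04, 2.22 and 2.58 times that of WBC11 at the 3 exposures. CER5 lies on chromosome 1 from 19097797 to 19101080. WBC11 is listed on chromosome 1 from 6142564 to 6148850, a locus that overlaps that of AT1G17850 (11.9, 12.0 and 13.0 FPKM), so reads of the 2 genes may have been divided between them.

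Sequence shared with other genes was otherwise short. Of all 50-base stretches in the longest RefSeq transcript, 17.3% of those of WBC11 also occurred in AT1G17850 on either strand, and 2.98% of those of CER2 in its neighbour AT4G24520. The other 8 members, including both KCS genes and CER1 and CER3, shared 0 such stretches with any other protein-coding transcript. Members lay apart in the genome, with 6 on chromosome 1, 2 on chromosome 4 and 1 each on chromosomes 3 and 5.

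Among the 8 abundant members, 5 (CER1, CER5, CER10, KCS6 and WBC11) were lower at 20 s than at both other exposures, where 36.1% of the background had that order. Likewise 5 (CER1, CER2, CER10, KCS1 and WBC11) were lower at both exposures than at 0 s, where 31.9% of the background was. The genes nearest to the median profile of the 8 members were AT3G59630, the aspartate kinase AK-HSDH II, AT3G25545, the lipid flippase ALA2 and AT5G52980, by Euclidean distance between centred log2 values over 3 exposures, at a distance of 0.03 each. With only 3 points this likeness is loose. As many as 487 genes lay within a distance of 0.05, and 50.4% of the other tested genes lay as near as the median member did.

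Of 21 other wax genes, 20 had a mean of at least 5 FPKM. At 20 s, where 51.5% of the background was lower, 9 were higher and 11 lower with a median log2 ratio of -0.03. At 60 s, where 45.4% of the background was lower, 6 were higher and 14 lower with a median of -0.12. At 20 s 1 was at least 1.5-fold higher, KCS12, and 1 at least 1.5-fold lower, WSD1, where 1.79% and 0.502% of the background were, and at 60 s there were 0. Both lay near the limit: KCS12 came to 0.55 with a pseudocount of 5 FPKM and 0.58 with quantile normalization, and WSD1 to -0.47 with 5 FPKM and -0.58 with centring on the epidermis markers, all short of 1.5-fold. In turn KCS2 passed at -0.66 with a pseudocount of 0.1 FPKM and KCS8 at 0.62 with the epidermis centring. KCS12, a condensing enzyme of the family of KCS1 and KCS6, had 28.3, 43.8 and 40.8 FPKM, with log2 ratios of 0.61 and 0.51. KCS8 of the same family had 37.8, 56.4 and 54.6 FPKM, with log2 ratios of 0.56 and 0.52. KCS16 had 13.1, 17.5 and 17.3 FPKM. These 3 family members were higher at both exposures, at levels well under that of KCS6.

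KCS2, by contrast, had 6.15, 3.87 and 5.42 FPKM, lowest at 20 s with a log2 ratio of -0.55, and its listed locus overlaps that of AT1G04210. Over the 11 KCS genes of the lists, 7 were higher and 4 lower at 20 s, where 48.5% of the background was higher. At 60 s 5 were higher and 6 lower, where 54.6% of the background was higher. The sum of the 11 was 1006, 1019 and 1034 FPKM, of which KCS6 made up 34.5%, 32.5% and 37.2%. At 60 s the lowest other wax gene was LACS1 (CER8), an acyl-CoA synthetase, with 98.5, 98.3 and 84.2 FPKM. KCS5 (CER60), the closest relative of KCS6 in wax synthesis, had 30.8, 35.6 and 27.5 FPKM and the lowest log2 ratio at 60 s against 20 s, -0.36. KCS5 was thus highest at 20 s, where KCS6 was lowest. KCS16, KCS2, KCR1, PAS2 and CER26 were picked out after their values were seen.

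Among 14 regulators of wax, 13 had a mean of at least 5 FPKM. At 20 s, where 48.5% of the background was higher, 9 of them were higher and 4 lower (median 0.09). At 60 s, where 54.6% of the background was higher, 8 were higher and 5 lower (median 0.03). DEWAX (AT5G61590), a repressor of wax genes, had 94.5, 185 and 156 FPKM. DEWAX was the highest of the list at both exposures, with log2 ratios of 0.96 (1.95-fold) and 0.72 (1.64-fold). Of the background, 0.638% was as high at 20 s and 1.01% at 60 s. A part of DEWAX in the values of the wax genes was not tested. Both DEWAX and WRI4 were at least 1.5-fold higher at 60 s, where 1.69% of the background was and 0.423% was that much lower, but WRI4 came to 0.48, short of that limit, with a pseudocount of 5 FPKM. WRI4, an activator of wax synthesis known from stems, had 9.42, 12.7 and 15.1 FPKM, with a log2 ratio of 0.62 at 60 s, and it was picked out after its values were seen. The listed locus of WRI4 overlaps that of AT1G79690, whose level was 26.9, 27.1 and 26.9 FPKM. DEWAX lies on chromosome 5 from 24764438 to 24765324.

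The MYB activators of the pathway differed little. MYB96 had 16.1, 17.6 and 16.3 FPKM, MYB30 had 23.2, 24.8 and 21.3 FPKM and MYB94 had 9.59, 8.64 and 9.80 FPKM, the last being the lowest of the list at 20 s (log2 ratio -0.14). MYB106, a regulator of cuticle and trichomes, was lowest at 60 s (7.77, 8.72 and 6.83 FPKM, log2 ratio to 0 s of -0.16). At 60 s against 20 s MYB106 had the lowest ratio of the list, -0.31, and 4.26% of the background was as low. Its relative MYB16 had the highest ratio of 60 s against 20 s, 0.27 (29.4, 27.9 and 33.7 FPKM), and 4.96% of the background was as high. SHN1, an activator known mainly from flowers, stood at 0.02 FPKM at 0 s, was listed at 0 at 20 s and stood at 0.06 FPKM at 60 s. MYB96 and MYB30 were named for their role and SHN1 for its level.

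**Figure D3:**
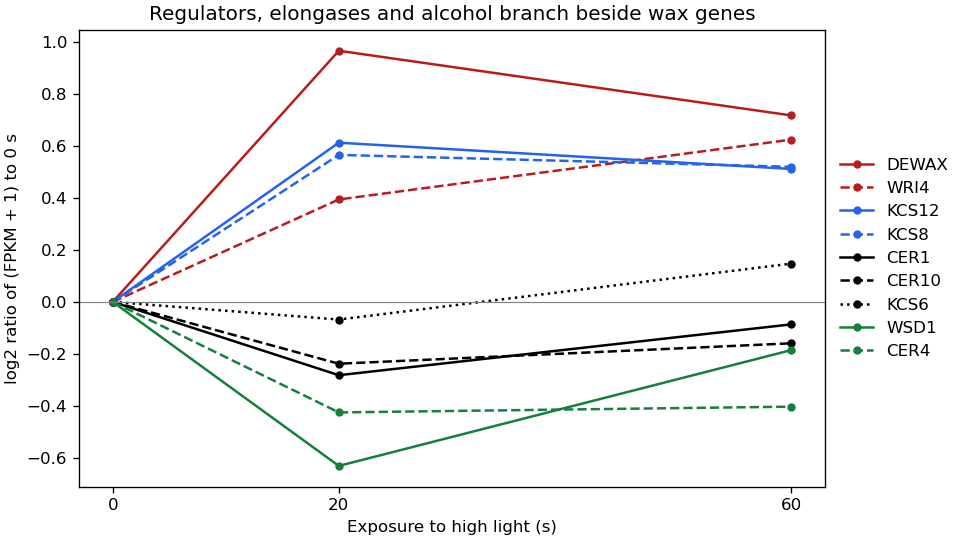
Log2 ratio of FPKM + 1 to 0 s at each exposure (s) for the regulators DEWAX and WRI4, the elongases KCS12 and KCS8, the alcohol branch genes WSD1 and CER4, and the members CER1, CER10 and KCS6. At 20 s DEWAX stands at 0.96, CER1 at -0.28, CER10 at -0.24 and WSD1 at -0.63. At 60 s the same genes stand at 0.72, -0.09, -0.16 and -0.19. Any link between these genes was not tested.

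Above the minimum level, genes for cutin, the polyester under the wax, differed less from 0 s than the wax members. Of 13 cutin genes 10 had a mean of at least 5 FPKM. In each comparison with 0 s 5 were higher and 5 lower, where 51.5% of the background was lower at 20 s and 45.4% at 60 s. The median log2 ratio of the 10 was 0.00 at 20 s and -0.00 at 60 s. Their ratios lay between -0.07 and 0.09 for 20 s and between -0.09 and 0.05 for 60 s. For the wax members the same ranges were -0.28 to 0.15 and -0.36 to 0.15. At 60 s against 20 s the cutin genes lay between -0.18 and 0.09 and the wax members between -0.19 and 0.25. The cutin gene CYP86A4, under the minimum with 4.65, 5.40 and 3.86 FPKM, had log2 ratios to 0 s of 0.18 and -0.22. LACS2, an acyl-CoA synthetase that supplies cutin, was the lowest at 20 s with 30.3, 28.7 and 29.5 FPKM. The acyltransferase DCR was the highest at 20 s and the lowest at 60 s, with 49.5, 52.8 and 46.6 FPKM. GPAT8, another acyltransferase of cutin synthesis, was the highest at 60 s with 35.5, 35.5 and 36.9 FPKM.

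Since wax is made in the epidermis, markers of cell types are given beside the members. In bulk tissue, fewer epidermal cells and less RNA per cell cannot be told apart. Of 8 epidermis markers 7 had a mean of at least 5 FPKM. At 20 s, where 51.5% of the background was lower, 5 were lower and 2 higher (median -0.05, from PDF2 at -0.14 to PDF1 at 0.11). At 60 s, where 45.4% of the background was lower, 4 were lower and 3 higher (median -0.01). The markers ATML1 (39.7, 37.5 and 39.4 FPKM) and PDF1 (213, 231 and 232 FPKM) of the outer layer were present at every exposure. Their summed level over the list was 2089, 2025 and 2090 FPKM, of which the lipid transfer protein gene LTP1 made up most. Relative to the epidermis median, 6 members were lower and 2 higher at 20 s, with a median of -0.09. The epidermis median was the value of HDG2, and 32.9% of the background lay at or below it. All 3 tested guard cell markers were lower at 20 s, from -0.25 for MYB60 to -0.03 for KAT1, where 51.5% of the background was lower. Under the minimum of 5 FPKM, HT1 was lower at -0.30 and SLAC1 higher at 0.05. The sum over all 5 guard cell markers was 42.7, 37.3 and 40.4 FPKM. Their part in the wax values was not tested.

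The 5 mesophyll markers had medians of -0.06 and -0.05 and the 5 vascular markers 0.01 and 0.07. At 60 s 2 mesophyll markers were higher and 3 lower than at 0 s, where 54.6% of the background was higher. The highest was LHCA1 (2486, 2501 and 3116 FPKM), with a log2 ratio of 0.33. As the label of shoot tissue implies, mesophyll markers were abundant (at least 1984 FPKM), while root markers reached at most 0.418 FPKM, with EXPA7 and RHD6 listed at 0 throughout, and flower markers at most 0.887 FPKM. Facts of the whole table that touch these values are its sums, 817000, 829701 and 858218 FPKM, and the summed level of 4 nuclear ribosomal RNA genes, which was 136, 1504 and 570 FPKM. Like the low point of CER1, CER10 and WSD1, the highest ribosomal RNA value came at 20 s, and its part in them was not tested.

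**Figure D4:**
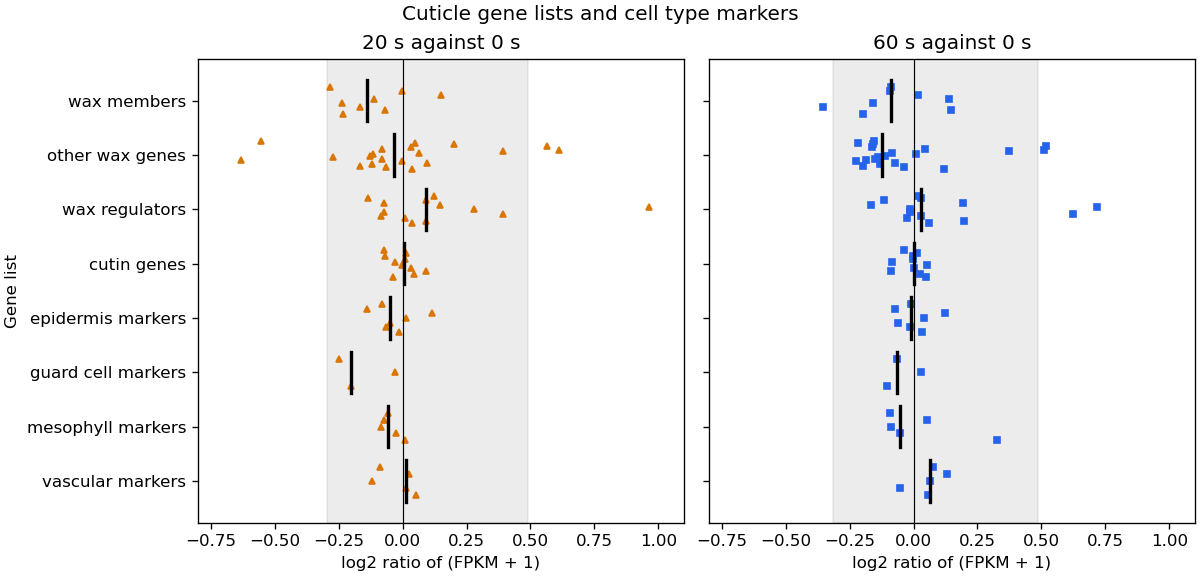
Log2 ratio of FPKM + 1 against 0 s for each gene whose mean reached 5 FPKM, by list, at 20 s (left) and 60 s (right), with a black bar at the median of the list and grey over the middle 95% of all tested genes. The wax members have medians of -0.14 and -0.09, cutin genes lie between -0.09 and 0.09, and KCS1, WSD1, KCS2, KCS8, KCS12, DEWAX and WRI4 lie outside the grey at 1 or both exposures.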

How the data were processed

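FPKM values were deposited by the authors as 1 value per gene and exposure. TopHat, Bowtie, Cufflinks and the TAIR9 build are named, per the submitters' processing notes. Versions, strand handling and how values of the 3 pools were merged are not given in the sources used. Such an estimator divides reads among gene copies and overlapping genes, so a value of exactly 0 is called listed at 0. Columns were matched to exposures by name, and 0 were left over. Ratios between columns of 1430 genes under 0.2 FPKM gathered in no common step (at most 20 genes in a log2 bin 0.004 wide), steps within a column were not examined, and the depth is unknown.

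The design allowed for limma only with a value per pool, so no test was made. Ratios used a pseudocount of 1 FPKM, a minimum mean of 5 FPKM for the background, and limits of 1.5-fold and 1.2-fold. The ratio code was tested on simulated data. Members and the 10 lists beside them were chosen with earlier results of these data known. Named were all members, the highest and lowest gene of each list per comparison, the 5 genes of nearest profile, and genes marked in the text as picked later or for their role; not every gene the rule allows is printed. Of the 100 genes in the lists, 96 carried their name in RefSeq TAIR10.1 and 4 (CER2-LIKE2, CER1-LIKE1, DEWAX2 and SAGL1) were kept by locus code. A base was added to each table start, after which 8829 of the 12238 genes that share their end with the reference shared the start too. Promoters and transcripts came from RefSeq by locus code. Python 3.11.15, pandas 2.3.3, numpy 2.4.6 and matplotlib 3.10.9 were used.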

Additional observations from a re-analysis of the deposited data

How the results depend on the processing

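Other pseudocounts (0.1 and 5 FPKM), no minimum level or a minimum of 20 FPKM, centring on all tested genes, quantile normalization and other fold limits were tried, and, chosen after seeing the data, centring on the epidermis markers and leaving out WBC11 for its overlapping locus. The median log2 ratio of the members moved by less than 0.1 under each. The count of members higher at 20 s was 2 in place of 1 when columns were centred on all tested genes or on the epidermis markers, since CER2 lay at -0.00. Quantile normalization gave 2 higher and 6 lower at 60 s against 0 s in place of 3 and 5. Centring on the epidermis markers gave 4 higher and 4 lower at 60 s against 20 s in place of 5 and 3, with a median of 0.01 in place of 0.06. Of the background, 42.1% lay at or above the epidermis median (GL2) in that comparison. Without a minimum level the median of the members at 60 s against 20 s was 0.03, and with centring on all tested genes 0.04. The limits of 1.5-fold at 20 s (KCS12 and WSD1) and at 60 s (WRI4), and of 1.2-fold at 20 s (CER1), were missed under the settings named beside those values. At a limit of 1.2-fold 1 member was past it at 20 s and 1 at 60 s, against 0 at 1.5-fold. Of 339 values for single genes, 12 moved by at least 0.1, all in CER4, MAH1, KCS2, WSD1 and WRI4 with another pseudocount, and 7 changed sign, all of them under 0.04 in size as reported. No paired analysis was possible because the table has no column per pool, and for the same reason no replicate could be left out and limma was not run. Depth is unknown, so counting error could not be given.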

Other observations

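CER1 lies next to its relative CER1-LIKE1 on chromosome 1, which had 0.762, 0.855 and 0.575 FPKM at 0, 20 and 60 s, so that the level of CER1 was 121, 88.3 and 151 times that of its neighbour. CER5 has a relative nearby on the same chromosome, ABCG13, known as a cutin exporter of flowers, at 3.27, 3.61 and 3.58 FPKM, and the level of CER5 was 35.0, 29.4 and 35.2 times as high. In each pair the member was the abundant copy at every exposure.

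Genes for suberin, a related polyester of roots and wounded tissue, were scarce, with 1 of 10 at a mean of at least 5 FPKM. That gene, the fatty acyl reductase FAR1, had 9.77, 10.1 and 10.1 FPKM, above its relative CER4 at every exposure. The GPI-anchored lipid transfer proteins LTPG1 (288, 265 and 263 FPKM) and LTPG2 (130, 116 and 114 FPKM), which help wax to reach the surface, were lower at both exposures than at 0 s, with log2 ratios between -0.12 and -0.20. CER9, a ubiquitin ligase that limits cuticle formation, had 34.8, 37.2 and 40.1 FPKM, and CER7, an exosome subunit needed for the CER3 transcript, had 12.8, 12.9 and 12.5 FPKM. These genes were picked out after their values were seen.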
